A study of Mus musculus with 6 samples.

Results

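Zfp729a, Zfp729b, Zfp738, Zfp65 and Zfp85os are neighbouring genes on mouse chromosome 13. They were selected by symbol because their counts move together between the same libraries that are described here, so that the comparison of their levels between genotypes is a description and carries no test. All 5 genes were found among the 27179 listed genes, and all 5 passed the filter on low counts that left 16483 genes. RNA was measured in quadriceps muscle of 3 miDrp1KO mice (libraries A, E and F) and 3 control mice (libraries B, C and D). The miDrp1KO mice carried floxed Dnm1l, the gene of the mitochondrial fission GTPase Drp1, together with HSA-MerCreMer, a tamoxifen-inducible Cre driven by the human skeletal actin promoter ACTA1, which is active in muscle fibres and not in the other cells of the tissue. The controls, labelled Control f/f, carried the floxed allele without Cre. Both groups received tamoxifen at 50 mg/kg daily for 4 days at 3 months of age, and the muscle was taken 3 weeks after the deletion. The floxed line had been backcrossed to C57BL/6J over at least 10 generations. The paper's mice ate normal chow or a high-fat diet and were fasted for 6 hours before study. It reports male mice for its later experiments and does not name the sex or diet of the sequenced mice. The letters are those of the library names, and the titles carry a separate number for each sample. The p-values below weigh a gene's difference between genotypes against a spread between these libraries that is moderated over all genes.

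Zinc finger proteins of the KRAB class bind DNA through an array of C2H2 fingers, and their KRAB domain recruits the corepressor Trim28, which brings the histone methyltransferase Setdb1 and heterochromatin proteins to the bound site. Many of them silence transposable elements, and their genes lie in clusters that grew by tandem duplication. The cluster on mouse chromosome 13 also holds Rsl1, a repressor of male-specific genes in liver. Because such genes are near copies of each other, short reads cannot always be given to a single gene.

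The members lie in 167400 bases in RefSeq coordinates of GRCm38.p6. In chromosome order, Zfp729b (Entrez 100416706) spans chr13:67589439-67609707, Zfp729a (Entrez 212281) chr13:67612760-67637803, Zfp738 (Entrez 408068) chr13:67667441-67683512 and Zfp65 (Entrez 235907) chr13:67705306-67729178, all on the minus strand and all protein-coding. Zfp85os (Entrez 68271) is a long noncoding RNA gene at chr13:67729262-67756838 on the plus strand. The gaps between successive members are 3052, 29637, 21793 and 83 bases, so Zfp65 and Zfp85os start back to back. The body of Zfp85os covers the whole of Zfp85 on the opposite strand, at chr13:67744464-67755202, and Zfp85 is not a member. The 250 bases before the start that the promoter table gives for 3 members are shown because the members move together and these starts resemble each other. They are RefSeq sequences of GRCm38.p6, read on the minus strand, from chr13:67637782-67638031 for Zfp729a, chr13:67683513-67683762 for Zfp738 and chr13:67729174-67729423 for Zfp65. Capitals mark a single block of letters that occurs in every promoter found for members. Other stretches that these promoters share are left in lower case. The gene spans of Zfp729a and Zfp65 reach past these starts, so that 22 and 5 of their printed bases fall inside the gene spans above, against 0 in Zfp738.
Zfp729a: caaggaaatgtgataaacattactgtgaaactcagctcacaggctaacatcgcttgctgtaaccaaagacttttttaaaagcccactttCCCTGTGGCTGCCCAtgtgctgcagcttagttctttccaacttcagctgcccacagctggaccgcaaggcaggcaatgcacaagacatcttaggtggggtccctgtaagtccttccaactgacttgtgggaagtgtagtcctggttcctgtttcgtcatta
Zfp738: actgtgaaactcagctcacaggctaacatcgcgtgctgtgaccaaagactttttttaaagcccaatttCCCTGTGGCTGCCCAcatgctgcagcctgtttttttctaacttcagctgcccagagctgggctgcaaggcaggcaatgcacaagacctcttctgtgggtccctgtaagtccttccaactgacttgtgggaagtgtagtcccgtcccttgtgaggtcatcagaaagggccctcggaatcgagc
Zfp65: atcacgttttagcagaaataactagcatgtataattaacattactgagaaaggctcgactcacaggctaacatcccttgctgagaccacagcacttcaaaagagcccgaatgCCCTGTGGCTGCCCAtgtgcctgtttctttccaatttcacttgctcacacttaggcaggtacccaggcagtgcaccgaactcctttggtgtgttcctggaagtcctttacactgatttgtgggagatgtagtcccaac

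Promoters, taken as 250 bases before and 50 bases after the start, were found for 4 of the 5 members, and Zfp729b was the member without an entry. The promoters of Zfp729a and Zfp738 were identical at 249 of 280 aligned columns (88.9%). Zfp65 matched Zfp729a at 71.2% and Zfp738 at 72.1% of its aligned columns, and the promoters of Zfp65 and Zfp85os share 188 bases read from opposite strands. The block in capitals has 15 letters. It was searched for with windows of 16 bases of the Zfp729a promoter, so its presence in the members follows from how it was found. Read on both strands, it occurs in the promoters of 4 of 27025 genes (0.0148%), which are the 4 members. It was not in any of 19 promoters of neighbouring zinc finger genes or of 315 Zfp genes elsewhere. Its first base lies at -161 in Zfp729a, -182 in Zfp738, -138 in Zfp65 and 36 in Zfp85os, counted from the start, and the last pair are the same bases on opposite strands, which leaves 3 separate copies. No match was found in the 4 member promoters for TATAAA, which 15.7% of all promoters hold, for GGGCGG (38.2%), for TGACGTCA, the cAMP response element (2.03%), or for AAAGGTCA, the element of NR4A receptors (1.7%). The CCAAT letters were in 3 of the 4 (41.1% of all promoters), and the matches of Zfp65 and Zfp85os are again shared bases. TGACGTCA was in 5 of the 19 neighbouring zinc finger promoters (26.3%), those of Zfp457, Zfp595, Zfp874a, Zfp874b and Zfp953. All motifs were read on both strands, TGACGTCA and AAAGGTCA end in the same letters, and a match is a description of letters only.

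The proteins of the coding members, translated from the GENCODE annotation, differ in how many fingers they carry. Zfp729b has 30 C2H2 fingers in 1045 residues, Zfp729a 27 in 973, Zfp738 20 in 793 and Zfp65 9 in 390. Over aligned residues, Zfp729a was 87.1% identical to Zfp729b, 87.8% to Zfp738 and 86.4% to Zfp65, whereas Zfp85, with 14 fingers, was 59% to 64.7% identical to the 4 members. The residues that contact DNA in a finger lie at helix positions -1, 2, 3 and 6, and a set of these residues was read from each finger. All 13 distinct sets of Zfp738 occurred in both Zfp729a and Zfp729b. Zfp729a (18 sets) and Zfp729b (24 sets) had 16 in common. Zfp65 shared 4 of its 9 sets with each of the other 3 coding members, and Zfp85 shared 0 of its 12 sets with any of the 4.

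This likeness limits how surely reads can be given to a single member. Of the 50-base stretches in the transcripts of Zfp729a, 14.9% also occur in a transcript of another gene, against 5.47% of the 100-base stretches, with Zfp738 as the closest. For Zfp738 the shares were 17.8% and 12%, and for Zfp65 they were 7.3% and 0%. For Zfp729b they were 39.9% and 38.3%, almost all of it shared with Gm49345, a GENCODE gene model that covers parts of both Zfp729b and Zfp729a. Between the members themselves, Zfp729a had 4.68% of its 50-base stretches in Zfp729b and 8.87% in Zfp738, and Zfp729b had 9.29% in Zfp729a and 10.8% in Zfp738. How reads with several matches were counted, and whether the counting used strand, are not given in the sources used here. The levels of Zfp729a, Zfp729b and Zfp738 apart from each other, and of Zfp85os apart from Zfp85 antisense to it, are therefore uncertain.

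The libraries held 13989588 (control C) to 62042255 (control D) counts, and ribosomal RNA genes took 1.47% to 24.4% of them. Dnm1l, the deleted gene, was at 156, 114 and 140 CPM (a gene's counts relative to the library's total, scaled by edgeR's TMM factors) in the controls (B, C, D) and at 70.6, 81.3 and 66.2 CPM in miDrp1KO A, E and F. Every miDrp1KO library was below every control, with a log2 fold change of -0.91 (SE 0.18) and an adjusted p of 0.362 by the quasi-likelihood test of edgeR, adjusted by Benjamini-Hochberg over all tested genes. At an adjusted p under 0.05, 2 of 16483 genes (0.0121%) were called by edgeR, Esr1 and Unc5a. DESeq2 called 94 of the same 16483 genes and limma voom called 1. The 8 skeletal muscle markers summed to 218000 to 276000 CPM in controls and 96500 to 205000 CPM in miDrp1KO muscle, and the 8 adipocyte markers to 980 to 1250 and 567 to 873 CPM, in both cases without overlap. Summed markers of macrophages (164 to 299 against 244 to 274 CPM), endothelial cells, fibroblasts, Schwann cells, blood cells and satellite cells overlapped between the groups. None of these 8 lists summed to 0 in any library, their part in the results below was not tested, and in bulk tissue fewer cells of a type and less RNA per cell cannot be told apart.

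Of the members, Zfp729a, Zfp729b, Zfp738 and Zfp85os were higher in every miDrp1KO library than in any control, and Zfp65 was not. The count of 4 of 5 stands beside a background of 7.67% of all tested genes whose groups do not overlap and are higher in miDrp1KO. Since the rule used this contrast, nothing is read from the count. Summed over the 5 members, the level was 48.6, 60 and 55 CPM in the controls (B, C, D) and 75.3, 76.5 and 70.9 CPM in miDrp1KO A, E and F. The means were 54.5 ± 5.69 and 74.2 ± 2.97 CPM (SD, n = 3 each), a ratio of 1.36.

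Zfp729a, the member with the widest separation, was at 12.2, 13.9 and 15.4 CPM in the controls (B, C, D) and at 21.7, 23.6 and 20.9 CPM in miDrp1KO A, E and F. Its lowest miDrp1KO library stood 1.36 times above its highest control. The group means were 13.8 ± 1.59 and 22 ± 1.39 CPM (SD, n = 3 each), with a log2 fold change of 0.67 (SE 0.16).

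Zfp738, whose 13 distinct finger sets all occur in Zfp729a, was at 12.5, 14.9 and 15.1 CPM in the controls (B, C, D) and at 19.1, 20.5 and 18.4 CPM in miDrp1KO A, E and F. The groups were apart, by a factor of 1.22 between the nearest libraries. Means were 14.2 ± 1.46 and 19.4 ± 1.08 CPM (SD, n = 3 each), and the log2 fold change was 0.45 (SE 0.16).

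Zfp729b, the near copy of Zfp729a and the member with the most fingers, was at 15.6, 20 and 15.9 CPM in the controls (B, C, D) and at 23.2, 21.7 and 20.5 CPM in miDrp1KO A, E and F. Control C stood close to the miDrp1KO libraries, and the lowest of these was 1.02 times above it. The counting intervals of control C (17.7 to 22.6 CPM) and miDrp1KO F (18.6 to 22.6 CPM) overlapped, these being exact 95% Poisson intervals that cover counting error only. The means were 17.2 ± 2.48 and 21.8 ± 1.32 CPM (SD, n = 3 each), with a log2 fold change of 0.35 (SE 0.16).

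Zfp65, the shortest of the coding members, was at 7.91, 10.6 and 8.04 CPM in the controls (B, C, D) and at 10.3, 9.04 and 10.5 CPM in miDrp1KO A, E and F. Its highest library was control C, so the groups overlapped. The means were 8.86 ± 1.54 and 9.97 ± 0.804 CPM (SD, n = 3 each), and the log2 fold change of 0.17 was smaller than its SE of 0.19.

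Zfp85os, the noncoding RNA that starts beside Zfp65, had few counts. There were 9, 6 and 31 counts in the controls (B, C, D) and 20, 67 and 11 counts in miDrp1KO A, E and F, or 0.426, 0.437 and 0.516 CPM against 0.972, 1.64 and 0.528 CPM. miDrp1KO F stood 1.02 times above control D, and their counting intervals (0.264 to 0.945 and 0.351 to 0.733 CPM) overlapped. The means were 0.46 ± 0.0492 and 1.05 ± 0.561 CPM (SD, n = 3 each), with a log2 fold change of 1.19 (SE 0.51) that fell to 0.67 without miDrp1KO E.

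**Figure D1:**
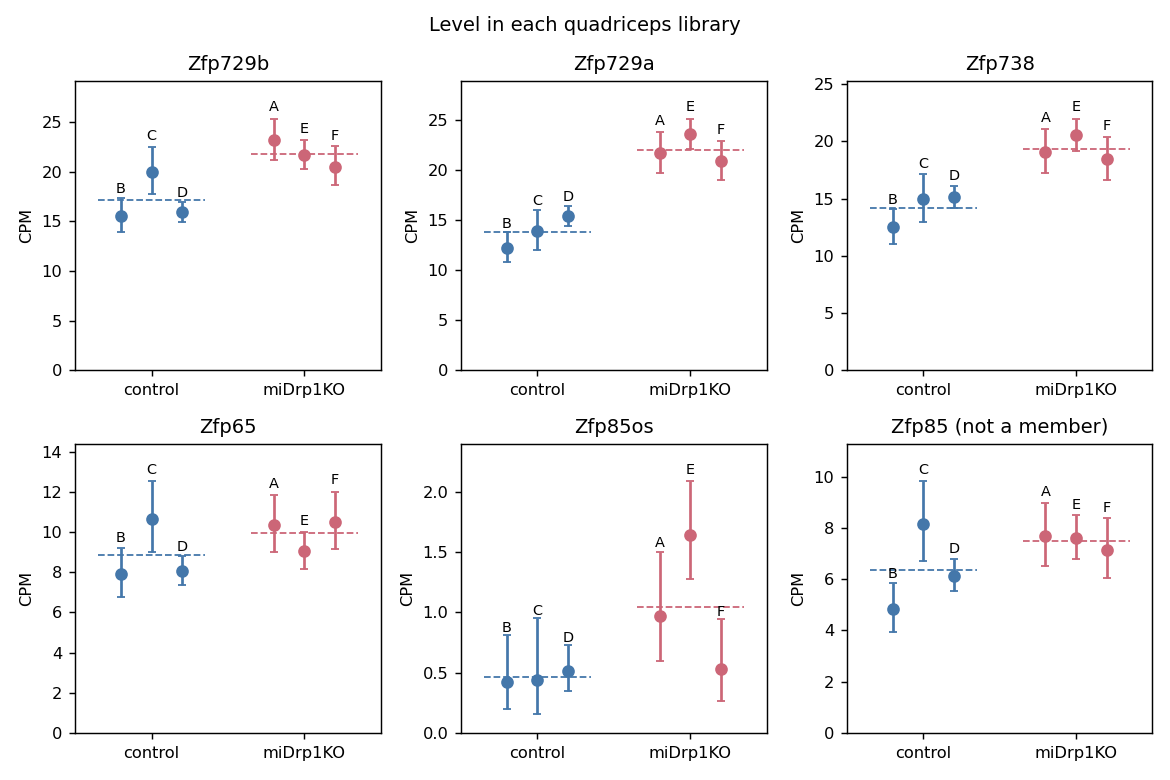
Level of each member and of Zfp85 in CPM for each control (B, C, D) and miDrp1KO (A, E, F) library. Bars are exact 95% Poisson intervals of the counts, dashed lines are group means, and every axis starts at 0. The groups are widest apart in Zfp729a and overlap in Zfp65 and Zfp85.

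Zfp85, on the strand opposite Zfp85os, was at 4.83, 8.16 and 6.15 CPM in the controls (B, C, D) and at 7.68, 7.6 and 7.15 CPM in miDrp1KO A, E and F. Its groups overlapped, with a log2 fold change of 0.24 (SE 0.22) and an adjusted p of 0.719 by edgeR. Counts of Zfp85os were 8.82%, 5.36% and 8.4% of those of Zfp85 in the controls (B, C, D) and 12.7%, 21.6% and 7.38% in miDrp1KO A, E and F. This share was highest in miDrp1KO E, and miDrp1KO F lay below control B and control D.

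Zfp729a and Zfp729b were also added together, since they share stretches of sequence with each other. Their sum was 27.8, 34 and 31.3 CPM in the controls (B, C, D) and 44.9, 45.3 and 41.4 CPM in miDrp1KO A, E and F. The groups stayed apart, with means of 31 ± 3.09 and 43.9 ± 2.13 CPM (SD, n = 3 each) and a ratio of 1.41. With Zfp738, which shares more stretches with each of them, added as well, the sum was 40.3, 48.9 and 46.4 CPM in controls and 64, 65.8 and 59.8 CPM in miDrp1KO muscle, a ratio of 1.4 without overlap. Zfp729a made up 44%, 41% and 49.1% of the pair in the controls (B, C, D) and 48.3%, 52.1% and 50.4% in miDrp1KO A, E and F. Control D lay above miDrp1KO A, so the groups overlapped in this share.

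Per kilobase of annotated exon, the order of levels in control muscle was Zfp729b (3.53 ± 0.512 CPM per kb), Zfp65 (2.11 ± 0.37), Zfp729a (1.42 ± 0.165), Zfp738 (0.938 ± 0.0969) and Zfp85os (0.106 ± 0.0116; SD, n = 3 each). No neighbouring pair in that order overlapped in the range of its control libraries. In miDrp1KO muscle the levels were 4.48 ± 0.271 CPM per kb for Zfp729b, 2.38 ± 0.192 for Zfp65, 2.26 ± 0.139 for Zfp729a, 1.28 ± 0.0721 for Zfp738 and 0.24 ± 0.129 for Zfp85os (SD, n = 3 each). There, Zfp65 and Zfp729a overlapped and did not differ beyond their spread. Exon length is the union of all annotated transcripts, from 4195 bases in Zfp65 to 15129 in Zfp738, and these need not be the exons that were counted, so the order rests on lengths that were not checked against the counting.

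Across the 6 libraries the members did not follow each other equally. Zfp729a, Zfp738 and Zfp85os had the same order of libraries, from miDrp1KO E at the top to control B at the bottom. The Pearson r of log2 CPM was 0.99 between Zfp729a and Zfp738 and stayed at 0.94 after the group means were removed. Between Zfp729a and Zfp729b it was 0.8 and 0.17. Zfp729b went with Zfp65 (0.82 and 0.81), both being high in control C, and Zfp65 with Zfp85os, 83 bases apart, had 0.1 and -0.44. These are descriptions over 6 libraries that share depth and scaling, and the part of reads shared between near copies was not tested. Averaged over the members as standardised levels, control B (-1.22) was lowest, then control D (-0.73), control C (-0.19), miDrp1KO F (0.42), miDrp1KO A (0.83) and miDrp1KO E (0.89).

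The neighbourhood within 1 Mb of the members was compared next, to see how far the pattern extends. It holds 21 further zinc finger genes, all of them tested. On balance 18 had a positive log2 fold change and 3 a negative one, with a median of 0.24, beside 8572 and 7911 of all tested genes and a median of 0.017. The median of the 21 was 0.168 without control D and 0.373 without control C, beside 0.0373 and 0.0227 for all tested genes. By edgeR, DESeq2 and limma voom, 0 of the 21 passed an adjusted p of 0.05. At an unadjusted p under 0.05, 7 were higher in miDrp1KO and 0 lower, where 4.68% of all tested genes were higher and 6.22% lower. In the same 7 the groups did not overlap and were higher, and 0 were apart and lower, beside 7.67% and 10.3% of all tested genes. Without control D, 4 were higher at an unadjusted p under 0.05 by edgeR. There, 951 of 17750 tested genes passed in either direction, against 1796 of 16483 with all libraries. The 21 genes together were at 113, 134 and 113 CPM in the controls (B, C, D) and at 144, 160 and 152 CPM in miDrp1KO A, E and F, without overlap, a ratio of means of 1.27. Of the 21, only Zfp85 was compared in sequence with other transcripts. Among its 50-base stretches 31.9% also occur in another gene, and Zfp273, also among the 21, is the closest (22.1%). How far the counts of the 21 are separate from each other was not tested.

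Within 200 kb of a member, Zfp58 (log2 fold change 0.57, SE 0.19, adjusted p 0.382), Zfp493 (0.55, SE 0.18, 0.382) and Zfp874b (0.42, SE 0.15, 0.393) were among the 7. Zfp58 was at 5.4, 5.61 and 5.88 CPM in the controls (B, C, D) and at 8.41, 7.18 and 9.55 CPM in miDrp1KO A, E and F. Zfp493, which lies beyond Zfp85 and is no member, was at 5.68, 6.27 and 6.48 CPM in controls and at 8.99, 8.43 and 9.55 CPM in miDrp1KO muscle, with every miDrp1KO library above every control. The other zinc finger genes at that distance had overlapping groups, with log2 fold changes of 0.47 in Zfp273, 0.24 in Zfp87, 0.18 in Zfp748, 0.09 in Zfp874a, -0.35 in Zfp429 and -0.74 in Zfp459.

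Farther away, Zfp457 had the largest log2 fold change of the neighbourhood, 1.46 (SE 0.38, adjusted p 0.362 by edgeR). It was at 1.61, 0.437 and 1.6 CPM in the controls (B, C, D) and at 3.21, 3.63 and 3.74 CPM in miDrp1KO A, E and F. Control C, the library with the fewest counts, lay at -1.99 log2 CPM from the mean of Zfp457. Controls B and D lay at -0.258 and -0.267. Zfp759 had the lowest unadjusted p of the 21, with 16.5, 13.9 and 16.3 CPM in controls against 22.1, 28.4 and 22.4 CPM in miDrp1KO muscle, a log2 fold change of 0.64 (SE 0.17) and an adjusted p of 0.362. Zfp456 (0.89, SE 0.31, adjusted p 0.392) and Zfp953 (0.60, SE 0.23, 0.393) complete the 7. The midpoint of Zfp457 lies 292.2 kb before the start of Zfp729b, and that of Zfp759 457.4 kb before it.

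Rsl1, Rslcan18 and Zfp455 were looked at after their values were seen. Rsl1 had a log2 fold change of 0.0063 (SE 0.40), Rslcan18 of 0.16 (SE 0.22) and Zfp455 of -0.41 (SE 0.35), all with overlapping groups. Of the neighbourhood's genes that are no zinc finger genes, 9 were tested, of which 2 had a positive and 7 a negative log2 fold change, with a median of -0.14, which was -0.026 without miDrp1KO E, -0.028 without miDrp1KO A, -0.038 without control D, -0.043 without control C and -0.087 without control B. The difference between the kinds of gene was not tested. Groups did not overlap in 2 of the 9, both lower in miDrp1KO (10.3% of all tested genes), namely Adcy2, an adenylyl cyclase (-0.85, SE 0.18, adjusted p 0.362 by edgeR), and Ptdss1 (-0.29, SE 0.16, adjusted p 0.536), both named after their values were seen. The lncRNA gene 4930525G20Rik, which overlaps Zfp273, was at -0.18 (SE 0.58).

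**Figure D2:**
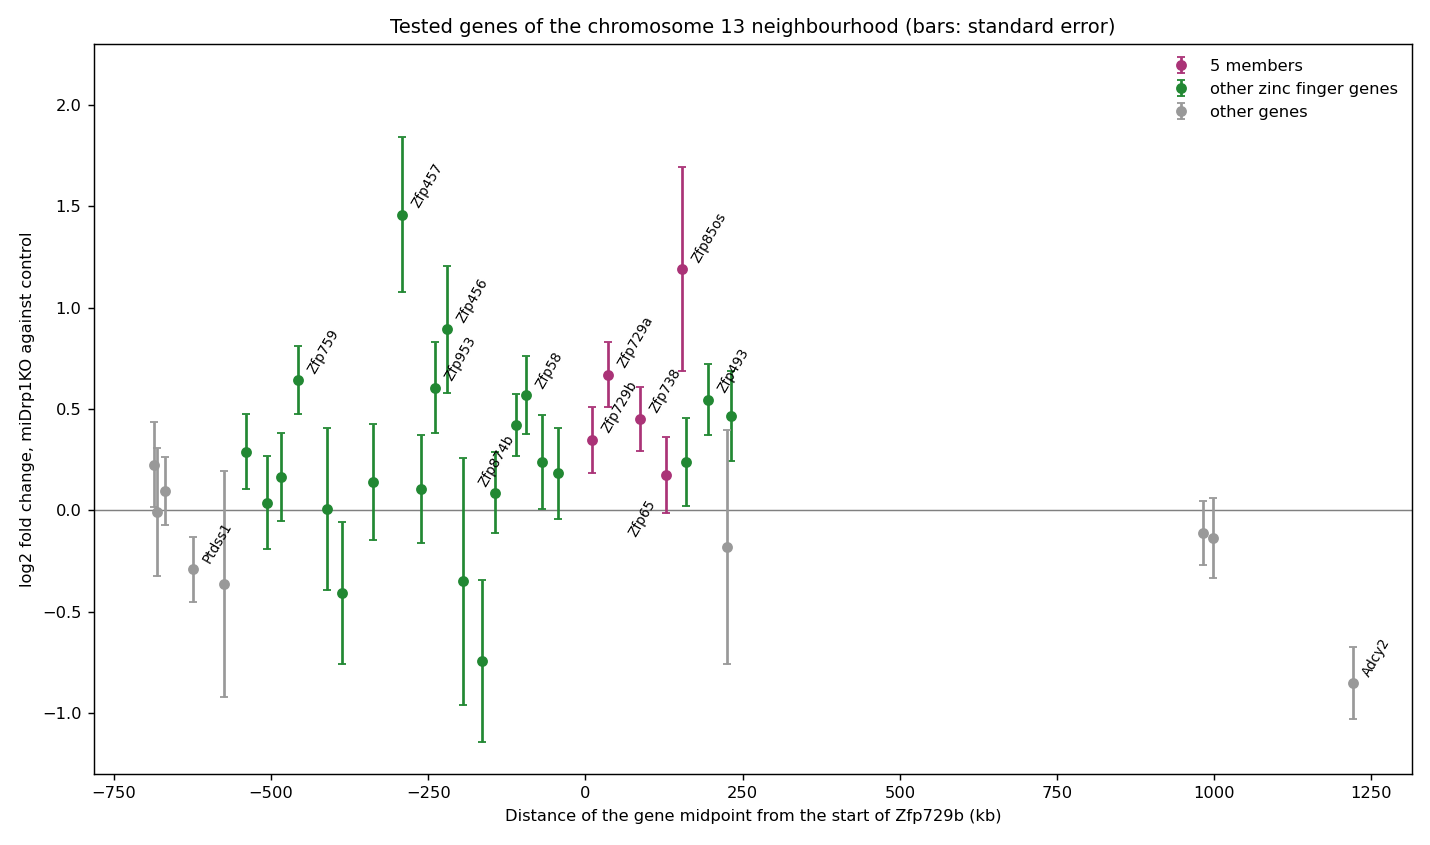
log2 fold change of each tested gene within 1 Mb of the members, with its standard error, against distance in kb of the gene's midpoint from the start of Zfp729b. Members are purple, other zinc finger genes green and other genes grey, and names are given for members and for genes whose groups do not overlap. Of the 21 green points, 18 lie above 0.

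By library, the median deviation of the 21 neighbours from their own means was -0.23, 0.072 and -0.22 (log2 CPM) in the controls (B, C, D) and 0.13, 0.26 and 0.21 in miDrp1KO A, E and F. Control C was the control nearest to the miDrp1KO libraries, with 13 of the 21 above their own mean, the same number as miDrp1KO A. miDrp1KO E and F each had 17, control B 4 and control D 2. Control C is the library with the fewest counts, and without it the groups did not overlap in 13 of the 21 instead of 7, while the share of all tested genes without overlap and higher went from 7.67% to 14.4%. Over the members the median deviation in control C was -0.14, between that of control D (-0.21) and that of miDrp1KO F (0.16).

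**Figure D3:**
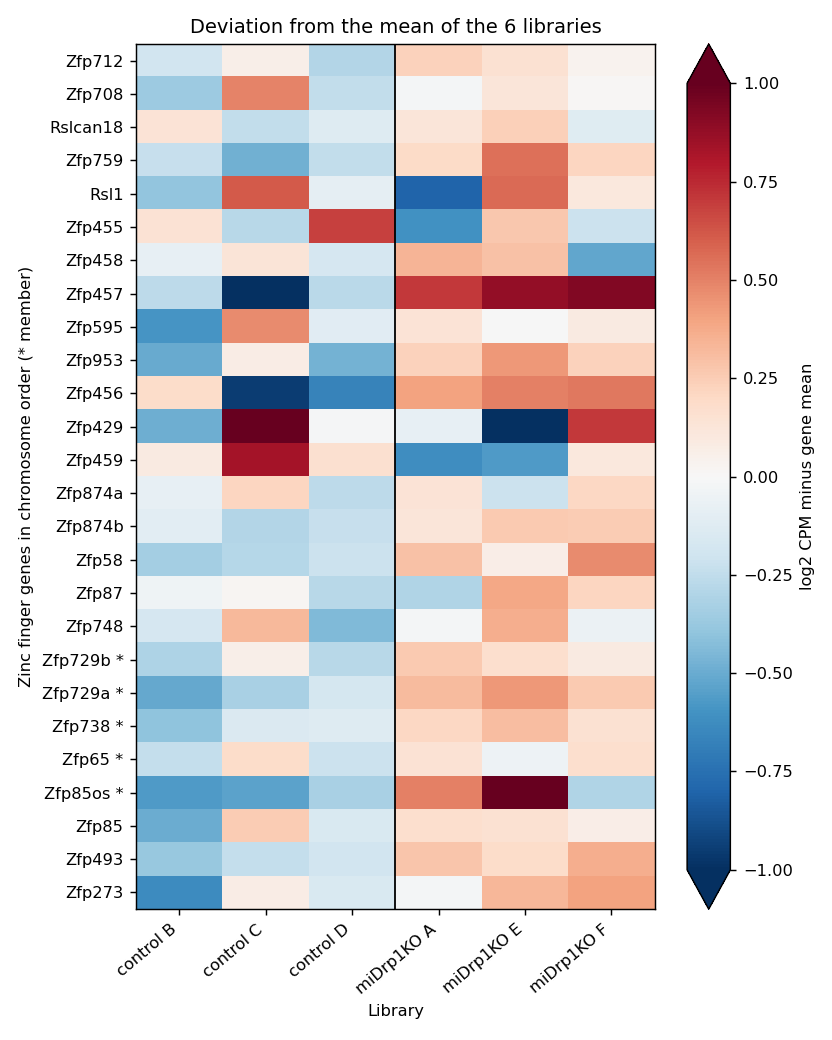
log2 CPM minus the gene's mean, for the 21 zinc finger neighbours and the 5 members, of which Zfp85os is noncoding. Rows are in chromosome order with members starred, and columns are the 6 libraries. Red is above and blue below the gene's mean, with colours capped at 1 in either direction. Members are mostly blue in controls and red in miDrp1KO muscle, and control C is red in part of the rows.

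Of 373 other Zfp genes, 352 were tested. They were chosen by symbol alone, Zfp followed by a number, and not by whether they are of the KRAB class. Positive log2 fold changes were found in 205 and negative ones in 147, with a median of 0.06. By edgeR, DESeq2 and limma voom, 0 passed an adjusted p of 0.05, while 13 were higher and 15 lower at an unadjusted p under 0.05 in edgeR, beside 4.68% and 6.22% of all tested genes. The groups did not overlap in 32 that were higher and 25 that were lower, beside 7.67% and 10.3% of all tested genes. The lowest p values belonged to Zfp385a (1.19, SE 0.24), Zfp948 on chromosome 17 (0.83, SE 0.19) and Zfp777 (-0.80, SE 0.20), each with an adjusted p of 0.362. Whether the chromosome 13 genes differ from the others was not tested.

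The partners through which KRAB zinc finger proteins act were read from a list of 25 corepressor and heterochromatin genes. Of these, 4 had a positive and 21 a negative log2 fold change, with a median of -0.17, which was -0.28 without miDrp1KO A and -0.081 without miDrp1KO F. By edgeR, DESeq2 and limma voom, 0 passed an adjusted p of 0.05, and 2 were lower and 0 higher at an unadjusted p under 0.05 in edgeR, where 6.22% of all tested genes were lower and 4.68% higher. These were Trim24, a relative of Trim28 (-0.38, SE 0.17, adjusted p 0.443), and Chd4, the remodelling ATPase of the NuRD complex (-0.48, SE 0.21, adjusted p 0.446). Next came Hdac2, a histone deacetylase of NuRD (-0.38, SE 0.18, adjusted p 0.467), and Trim28, the corepressor itself (-0.35, SE 0.16, adjusted p 0.467). Trim28 was at 24.9, 30 and 29 CPM in the controls (B, C, D) and at 24.4, 22.8 and 18.5 CPM in miDrp1KO A, E and F. Its groups touched closely, as control B and miDrp1KO A differed by less than 1 CPM. In 9 of the 25 the groups did not overlap and were lower in miDrp1KO (10.3% of all tested genes), and in Uhrf1 alone they did not overlap and were higher (7.67% of all tested genes), Uhrf1 being named after its values were seen.

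**Figure D4:**
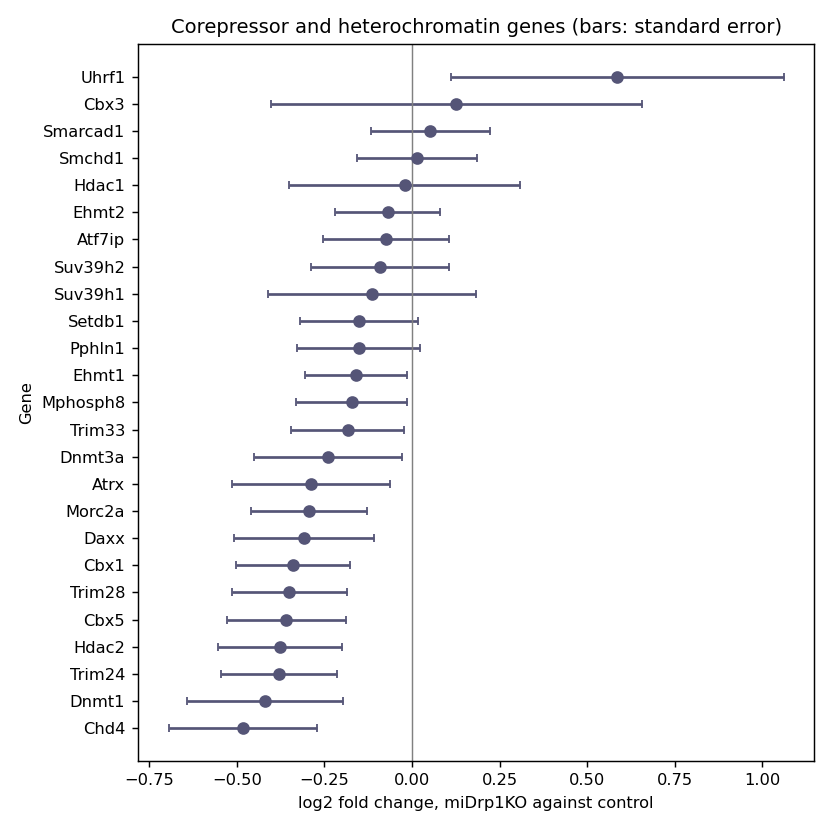
log2 fold change (miDrp1KO against control) with its standard error for the 25 corepressor and heterochromatin genes, in order of size. Of the 25 points, 21 lie below 0, and Trim28 is at -0.35.

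The genes whose levels were most like the members were found by the Pearson r between their log2 CPM and the members' mean standardised level over the 6 libraries, among tested genes with a mean of at least 1 CPM. They were Sp3, a transcription factor (0.9905), Slc35a2, a nucleotide sugar transporter (0.9855), Smim15 (0.9849), the surface protein Cd34 (0.9821) and Numbl (0.9802). Sp3 was at 57.6, 65.5 and 59.7 CPM in the controls (B, C, D) and at 73.5, 73.4 and 71.6 CPM in miDrp1KO A, E and F, a log2 fold change of 0.26 (SE 0.15). Smim15 is on chromosome 13 too, at chr13:108044474-108049146. With 6 libraries these values are a description only.

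The log2 fold changes of the members were positive under each of the 13 alternatives that gave a value, 12 for Zfp85os. They lay between 0.61 and 0.78 in Zfp729a, 0.30 and 0.45 in Zfp729b, 0.39 and 0.54 in Zfp738, 0.12 and 0.30 in Zfp65 and 0.67 and 1.52 in Zfp85os. Zfp85os moved most, and both its ends came from leaving out a single miDrp1KO library, E or F.

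**Figure D5:**
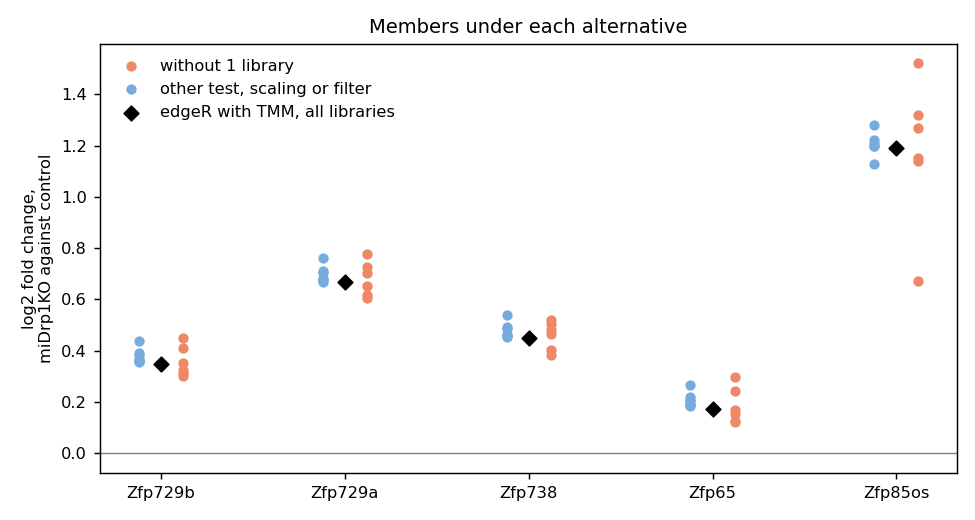
log2 fold change of each member by edgeR with TMM factors (black diamond), under another test, scaling or filter (blue, 7 alternatives, of which 6 gave a value for Zfp85os) and without 1 library (orange, 6). All points lie above 0, and those of Zfp85os spread from 0.67 to 1.52.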

How the data were processed

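Total RNA libraries (TruSeq Stranded Total RNA with RiboZero Gold, RNA integrity number above 7) were sequenced in 2 pools on an Illumina HiSeq instrument, and the pool of each library is not given in the sources used here. The authors aligned the reads to GRCm38 and counted them per gene with Rsubread 2.4.2 and a version 97 annotation, and deposited raw counts for 27179 Entrez genes per library. FastQC and DESeq2 1.30.0 are named in the submitters' processing notes.

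Counts were filtered with filterByExpr, scaled with TMM and fitted by genotype in all 6 libraries with edgeR 4.0.16 (glmQLFit and glmQLFTest, robust, R 4.3.3), and p-values were adjusted by Benjamini-Hochberg over 16483 genes at a threshold of 0.05. No p is given for members. Members and lists were chosen with earlier results of these data known. Named genes were the members, Zfp85, tested genes within 200 kb, farther zinc finger genes with an unadjusted p under 0.05, the 5 most alike genes, corepressors with an unadjusted p under 0.05 or the 4 lowest, the 3 Zfp genes elsewhere with the lowest p, and Dnm1l. Alternatives were DESeq2 1.42.0, limma 3.58.1 voom, RLE and upper quartile scaling, no filter, at least 10 counts in every library, ribosomal RNA genes left out, and each library left out in turn. Positions and promoters came from RefSeq (GRCm38.p6), exons and coding sequences from GENCODE release 21 for mouse, read with Biopython 1.88. For the sequence shares, every 50-base and 100-base stretch of the transcripts was compared with both strands of all other transcripts.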

Additional observations from a re-analysis of the deposited data

How the results depend on the processing

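The members' summed log2 ratio was 0.39 to 0.54 over the 13 alternatives. In scaled counts 4 members were without overlap in each, namely Zfp729a, Zfp729b, Zfp738 and Zfp85os, except that without control C Zfp65 took the place of Zfp85os; with at least 10 counts in every library, 3 of them were tested. The share of all tested genes that were higher without overlap, 7.67%, was 7.67% to 10.9% under the other tests, scalings and filters and 11.6% to 20.2% without 1 library, so that these counts are not alike between settings. Counting Zfp729a and Zfp729b as 1 gene, an alternative chosen after seeing the data, gave a log2 fold change of 0.50 where Zfp729a alone had 0.67. The number of genes called, 2 by edgeR, was 94 by DESeq2, 1 by limma voom, 8 without a filter and 1 to 7 without 1 library. For the 21 zinc finger neighbours, the median of 0.24 was 0.168 to 0.373 without 1 library, the count at an unadjusted p under 0.05 was 4 to 8 (4 without control D) and the count without overlap 8 to 13 (13 without control C), beside that 11.6% to 20.2% of all tested genes. The median of the other neighbours, -0.14, was -0.0513 under upper quartile scaling, -0.0831 with at least 10 counts in every library and -0.138 to -0.0261 without 1 library. The median of the Zfp genes elsewhere, 0.06, was 0.148 under upper quartile scaling and 0.0457 to 0.101 without 1 library. That of all tested genes, 0.017, was 0.106 under upper quartile scaling, 0.113 without a filter and 0.0045 to 0.0638 without 1 library, and that of the corepressor list, -0.17, was -0.086 under upper quartile scaling and -0.282 to -0.081 without 1 library. The causes were not tested. At least 10 counts in every library left no value for Zfp85os, whose 6 to 67 counts per library limit its precision. No paired analysis was possible because each library has a letter and a title number of its own, and nothing in the labels ties a miDrp1KO to a control library.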

Other observations

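Among the Zfp genes outside the neighbourhood, those on chromosome 17 had a positive log2 fold change in 39 of 45 tested genes, with a median of 0.20, against 45 of 86 and a median of 0.016 on chromosome 7. Medians by chromosome ran from -0.211 on chromosome 1 to 0.299 on chromosome 19, each with 3 tested genes. Of all 16483 tested genes, 8572 had a positive log2 fold change. Chromosome 17 was singled out after its values were seen, and the difference between chromosomes was not tested. Zfp948 and Zfp97 on chromosome 17 had log2 fold changes of 0.83 (SE 0.19) and 0.70 (SE 0.19), each with an adjusted p of 0.362 by edgeR. Zfp97 was at 8.48, 7.07 and 6.45 CPM in the controls (B, C, D) and at 13.9, 11.4 and 10.4 CPM in miDrp1KO A, E and F, so that every miDrp1KO library lay above every control. Zfp97 falls outside the rule for named genes and was chosen after its values were seen.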
